A study of Mus musculus with 2 samples.

Results

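The receptors and ligands of vascular endothelial growth factor (VEGF) were described in 2 single-cell libraries as 8 genes chosen by name, out of 33456 genes in the count tables. The 8 are the receptor genes Kdr, Flt1 and Flt4, the neuropilin genes Nrp1 and Nrp2, and the ligand genes Vegfa, Vegfb and Vegfc. All 8 were found in both tables. The rule for them is their names alone, though earlier results of these data were known when it was set.

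VEGF ligands are secreted proteins that bind receptor tyrosine kinases on vessel cells and their precursors. The product of Kdr (VEGFR2, also Flk1) carries most of the growth and migration signal of VEGF-A and marks the mesoderm from which blood and endothelium arise. The product of Flt1 (VEGFR1) binds VEGF-A tightly and signals weakly, and its soluble form holds the ligand back, while the product of Flt4 (VEGFR3) is the receptor for VEGF-C. Neuropilins are co-receptors with no known enzyme activity of their own, which bind VEGF as well as semaphorins, the guidance proteins that signal through plexins. In the embryo, loss of Kdr stops the formation of blood islands and vessels in the yolk sac.

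The first library, EB, came from C57BL/6 mouse embryonic stem cells. These had been kept with LIF on feeder fibroblasts (MEF) and then without feeders, and were grown in serum as embryoid bodies, floating aggregates, to day 4 under conditions that favour hemangiogenic mesoderm. The second library, YS, came from C57BL/6 yolk sacs of E9.5 and E10.5 embryos mixed in equal numbers, so the stages cannot be told apart. Accutase released the EB cells and collagenase the YS cells, and after a freeze and thaw the live cells were sorted out. About 70% of the Ter119-positive red cells were removed from YS, so shares of YS cells are shares of what that sort left. No gene was altered in either source. Each source is 1 library, so source, culture, dissociation and library cannot be told apart, and no test between groups is given.

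Values are sums of UMIs (unique molecular identifiers, each standing for 1 captured transcript) over cells, scaled to 1000000 (CPM). Each range in brackets is a 95% interval, Poisson (exact) for a level, Clopper-Pearson (exact) for a share and conditional binomial for a ratio. It covers counting error only, not the spread between embryos or cultures. The EB library gave 1878 cells with a median of 25547 UMIs, and YS gave 775 cells with a median of 28461. Shares of cells with a UMI are also given after each cell was thinned to 6000 UMIs, which left out no cell. Levels of different genes are not compared with each other.

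In mm10 coordinates all 8 are protein-coding genes. Kdr (ENSMUSG00000062960) lies at chr5:75932827-75978458 on the minus strand, and Flt1 (ENSMUSG00000029648) at chr5:147561604-147726011 on the same chromosome and strand. Flt4 lies at chr11:49609263-49652739, Nrp1 at chr8:128358604-128503363, Nrp2 at chr1:62703285-62818695 and Vegfc at chr8:54077606-54187096, all on the plus strand. Vegfa at chr17:46016993-46032369 and Vegfb at chr19:6982473-6987651 are on the minus strand. Of the 8, Nrp1 shares exon bases on its own strand with another gene, the microRNA gene Mir1903, whose reads could not be told from those of Nrp1.

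The stretches just upstream of Kdr and Flt1 are shown because the results turn most on these receptors. They are RefSeq sequences (GRCm38.p6) of the 247 bases chr5:75978459-75978705 and the 250 bases chr5:147726012-147726261, both minus strand, 5′ to 3′. Capitals mark the ETS core GGAA on either strand (TTCC on the printed one), the letters that ETS factors such as Etv2, Fli1 and Erg read.
Kdr: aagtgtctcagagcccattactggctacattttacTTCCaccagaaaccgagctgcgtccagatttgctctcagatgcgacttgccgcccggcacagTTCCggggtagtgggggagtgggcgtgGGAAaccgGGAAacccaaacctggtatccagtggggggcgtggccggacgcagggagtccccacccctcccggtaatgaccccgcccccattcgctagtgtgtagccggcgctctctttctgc
Flt1: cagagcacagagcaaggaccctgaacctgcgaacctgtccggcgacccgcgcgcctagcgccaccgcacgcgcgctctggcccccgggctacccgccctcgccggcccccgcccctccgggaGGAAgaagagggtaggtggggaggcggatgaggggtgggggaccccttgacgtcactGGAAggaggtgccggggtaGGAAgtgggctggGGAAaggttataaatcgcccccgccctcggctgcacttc
Each holds 4 ETS cores. The letters are common: 93.4% of 32851 RefSeq promoter windows of 250 bases held at least 1, with a mean of 2.91, and 33.4% held 4 or more. In the same window Nrp1 held 4, Flt4 2, and Nrp2, Vegfb and Vegfc 1 each. The first of the Vegfa entries held 6 and the second 2. The GC box GGGCGG, found in 32.7% of windows, was in the window of each of the 8 genes, and the hypoxia element core ACGTG, found in 16.6%, was only in the second Vegfa entry. A match describes letters and shows no binding.

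Cells were placed in groups by marker lists that hold none of the 8 genes, and a name says only that a cell's markers led that list. The 154 EB cells of the hemangiogenic progenitor-like group had 7 of 11 list markers at least 2-fold higher than in the other EB cells, among them Tal1, Lmo2 and Etv2. The 51 cells of the YS endothelial-like group had 17 of 17, led by Lyve1, Cldn5 and Plvap. The gate used these markers, so high folds follow from the gate itself and are no separate check of identity. Folds in this paragraph were taken after 20 CPM was added to both levels, which lowers them for scarce genes. Kdr itself was among the 10 genes of highest fold in both groups and in the EB cardiac and lateral mesoderm-like group, as were Flt1 in the EB definitive endoderm-like group and Nrp2 in the YS mesothelial-like group. Own markers past 2-fold were 4 of 10 in EB cardiac-like, 5 of 11 in allantois-like and 4 of 10 in paraxial-like cells. In YS they were 6 of 12 in hematopoietic progenitor-like and 4 of 12 in granulocyte and mast cell-like cells. They were 11 of 11 in YS erythroid-like and 10 of 10 in extraembryonic endoderm-like cells. No group took 658 EB cells (35%) and 172 YS cells (22.2%). Some groups overlap in markers: the YS mesothelial-like cells had 6 of 10 own and 6 of 10 mesenchymal markers past 2-fold, the YS smooth muscle-like cells 8 of 10 own and 7 of 10 mesenchymal, and the EB definitive endoderm-like cells 5 of 8 own and 5 of 10 epiblast markers. YS endothelial-like cells were shallow, with a median of 13791 UMIs. Markers of neural cells summed to 0.809 CPM and those of feeder fibroblasts to 12.6 CPM in EB.

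Kdr was highest in mesoderm groups in EB and in endothelial-like cells in YS. In the EB hemangiogenic-like group Kdr stood at 217 CPM (95% interval 203 to 232), with a UMI in 141 of 154 cells. The cardiac and lateral mesoderm-like cells followed at 187 CPM (165 to 211), and these intervals overlap, so the first place in the order is not settled. Allantois and extraembryonic mesoderm-like cells held 97.3 CPM (89.7 to 105), below both. Streak and nascent mesoderm-like cells (40.1 CPM, 35.8 to 44.6) and paraxial mesoderm-like cells (35.7, 27.6 to 45.4) came next, with overlapping intervals. Definitive endoderm-like cells held 13.7 CPM, and germ cell-like, epiblast-like and naive pluripotent-like cells between 2.82 and 5.97 CPM.

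In YS the endothelial-like cells held 468 CPM of Kdr (422 to 516), with a UMI in 50 of 51 cells, against 23.9 CPM (17.6 to 31.7) in the next group, megakaryocyte-like cells. Those 51 cells held 3.47% of all YS UMIs and 65.1% of the Kdr UMIs, and cells in no group held 14.3%. Hematopoietic progenitor-like cells had 17.6 CPM (12.5 to 24.1), granulocyte and mast cell-like cells 8.25, and 5 further groups between 0.886 and 4.26 CPM. Extraembryonic endoderm-like cells had 0 UMIs, which allows up to 4.74 CPM by the exact interval. The groups below the endothelial-like cells mixed blood and stroma: macrophage-like (2.17 CPM) and erythroid-like cells (0.886) lay under mesenchymal-like cells (4.26). The 22 megakaryocyte-like cells with a Kdr UMI had a median of 6.5 of the 17 endothelial markers, against 2.5 in the other 28, and the part of mixed droplets in this was not tested.

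At matched depth the 3 leading EB groups kept their order. At 6000 UMIs a Kdr UMI was seen in 65.6% of EB hemangiogenic-like, 57.1% of cardiac-like, 39.7% of allantois-like and 84.3% of YS endothelial-like cells. Free RNA in the droplets would give a Kdr UMI in 1.39% of EB cells and 0.0700% of YS cells. YS erythroid-like cells, which should lack the receptor, had one in 1.92% of cells (0.398% to 5.52%), at a median of 33226 UMIs.

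Flt1 followed another order in EB, with its highest level outside the mesoderm. Definitive endoderm-like cells held 145 CPM (129 to 162), with a UMI in 82 of 103 cells. Hemangiogenic-like cells held 35.6 CPM (30.1 to 41.8), with a UMI in 66 of 154. The other 7 groups lay between 4.38 and 12.7 CPM, and each overlapped the next in order. The endoderm-like cells, with 4.16% of EB UMIs, held 36.2% of the Flt1 UMIs. At 6000 UMIs Flt1 was seen in 54.4% of endoderm-like and 16.2% of hemangiogenic-like cells, where free RNA would give 0.285% before thinning. Kdr in the endoderm-like group rested on 7 of 103 cells, 1 of which held 15 of its 29 UMIs. The 82 endoderm-like cells with Flt1 had a median of 1 of 11 hemangiogenic markers, as had the cells without it.

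In YS Flt1 was highest in endothelial-like cells, at 375 CPM (334 to 418) and in 48 of 51 cells. With the stricter UMI cutoff (20% in place of 10% of the 99th percentile of barcode totals), which kept 31 endothelial-like cells, it was 244 CPM. Hematopoietic progenitor-like cells came next at 51.0 CPM (42.0 to 61.3), in 37 of 59 cells, the highest of the blood groups. These 37 cells were deeper (median 48149 UMIs against 27721) and had a median of 6 of 17 endothelial markers against 4. At 6000 UMIs the share was 16.9%, against 78.4% in endothelial-like cells. The smooth muscle-like level, 26.8 CPM, came from 5 of 36 cells, and 1 cell held 14 of its 23 UMIs. The erythroid-like level, 1.77 CPM, was a single cell of 92154 UMIs with 10 endothelial markers. Mesenchymal-like, mesothelial-like and extraembryonic endoderm-like cells had 0 Flt1 UMIs, which allows up to 1.74, 3.72 and 4.74 CPM.

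Flt4 was scarce in EB. Hemangiogenic-like cells held 6.74 CPM (4.48 to 9.74), 28 of the 81 UMIs of the library, and the other 8 groups lay between 0.398 and 2.16 CPM. YS endothelial-like cells held 62.0 CPM (46.3 to 81.3), in 27 of 51 cells, and 59.1% of the YS Flt4 UMIs. Hematopoietic progenitor-like cells had 4.97 CPM (2.48 to 8.89). In YS 5 groups had 0 UMIs, which allows from 0.65 CPM in erythroid-like to 4.74 CPM in extraembryonic endoderm-like cells. At 6000 UMIs, 43.1% of the YS endothelial-like and 5.84% of the EB hemangiogenic-like cells showed the gene.

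**Figure D1:**
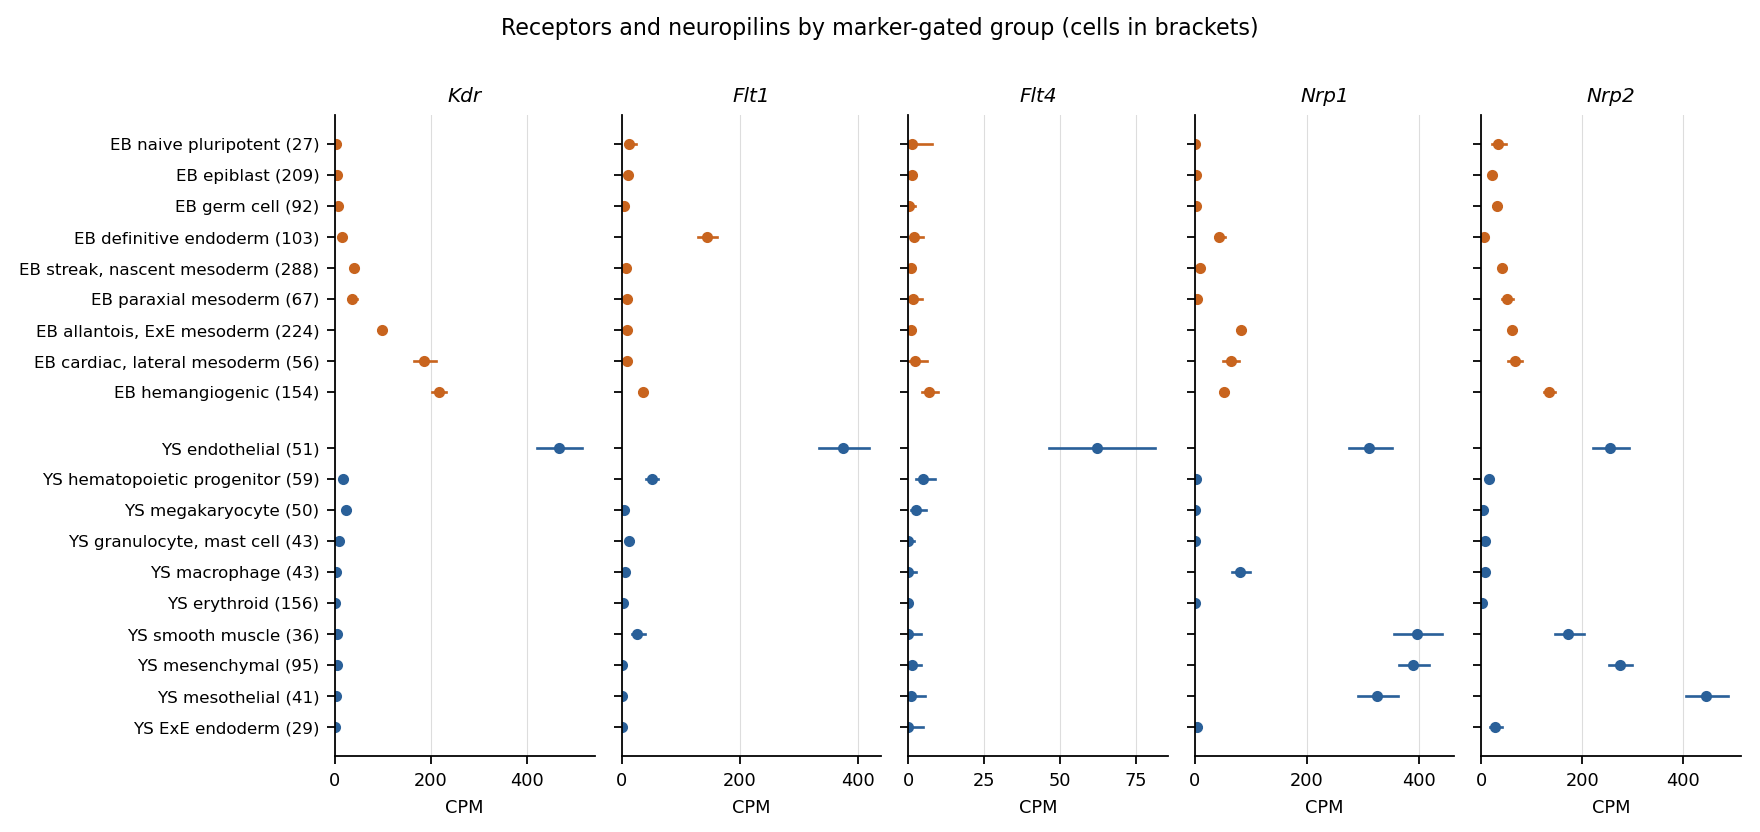
Level (CPM, horizontal axis, from 0, its own range for each gene) of the 3 receptors and 2 neuropilins in each marker-gated group, with cell numbers in brackets; points are summed levels, lines 95% exact Poisson intervals, orange EB and blue YS. Kdr, Flt1 and Flt4 peak in YS endothelial-like cells at 468, 375 and 62.0 CPM, Flt1 has a second peak of 145 CPM in EB definitive endoderm-like cells, and the neuropilins extend to the YS stroma.

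The neuropilins were broader than the receptors. In EB, Nrp1 stood at 81.8 CPM (74.9 to 89.2) in allantois-like cells, 64.0 (51.4 to 78.7) in cardiac-like, 51.5 (44.8 to 58.9) in hemangiogenic-like and 44.1 (35.6 to 54.0) in endoderm-like cells, each overlapping the next. Streak-like cells held 9.09 CPM, paraxial, germ cell-like and epiblast-like cells at most 3.78, and naive pluripotent-like cells 0 UMIs, which allows up to 5.19 CPM. Nrp1 in EB was thus highest in 3 of the mesoderm groups and in the endoderm-like cells, but not in paraxial mesoderm-like cells.

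In YS, Nrp1 was at a high level in 4 groups, of which 3 were stroma. Smooth muscle-like cells held 396 CPM (355 to 441) and mesenchymal-like cells 390 (364 to 418). Mesothelial-like cells held 325 CPM (290 to 362) and endothelial-like cells 311 (275 to 351), with overlapping intervals. Macrophage-like cells held 81.7 CPM (67.3 to 98.2), in 34 of 43 cells, a blood group with Nrp1 but with 3 Kdr UMIs. The 34 cells were deeper than the other 9 (median 34466.5 against 12459 UMIs). All other groups were at most at 3.86 CPM.

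Nrp2 led in EB hemangiogenic-like cells at 134 CPM (123 to 146), followed by cardiac-like (66.1) and allantois-like cells (61.9). In the pluripotent groups Nrp2 stood at 32.4 CPM (20.5 to 48.6) in naive-like and 20.7 (17.3 to 24.6) in epiblast-like cells, where Nrp1 had 0 UMIs and 10 UMIs in 8 of 209 cells. It was lowest in the endoderm-like group, at 5.21 CPM (2.60 to 9.33), where Nrp1 was at 44.1. In YS the order was mesothelial-like (446 CPM, 405 to 490), mesenchymal-like (276, 254 to 299), endothelial-like (255, 222 to 292) and smooth muscle-like cells (173, 146 to 203), with overlap between the second and the third. Extraembryonic endoderm-like cells held 27.0 CPM, and erythroid-like cells 1.42.

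Of the ligands, Vegfa was low in counts, with 257 UMIs in all EB cells and 234 in all YS cells. In EB it was highest in endoderm-like cells at 15.6 CPM (10.8 to 22.0), in 25 of 103 cells, followed by hemangiogenic-like cells at 7.70 (5.27 to 10.9), whose interval just overlaps. The remaining groups lay between 1.99 and 6.38 CPM. In YS 3 groups could not be told apart: mesothelial-like at 28.3 CPM (18.8 to 40.8), mesenchymal-like at 27.9 CPM (21.2 to 36.0), and the extraembryonic endoderm-like group at 25.7 CPM (15.7 to 39.7). Smooth muscle-like cells had 12.8 CPM, endothelial-like cells 7.16 (2.63 to 15.6), and macrophage-like cells 0 UMIs, which allows up to 2.67 CPM. The YS groups with the most Vegfa therefore had little or no Kdr.

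Vegfb, whose product binds VEGFR1, was the most even of the 8. It ranged from 38.0 to 76.8 CPM over the 9 EB groups and from 22.2 to 54.0 CPM over 9 of the 10 YS groups. Erythroid-like cells, at 6.55 CPM (4.62 to 9.03), were the exception.

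Vegfc, the VEGFR3 ligand, was highest in EB in allantois-like cells at 17.1 CPM (14.0 to 20.6), with a UMI in 71 of 224 cells. Cardiac-like cells had 12.9 CPM (7.67 to 20.4) and hemangiogenic-like cells 8.42 (5.87 to 11.7). Endoderm-like cells had 1 UMI and naive pluripotent-like cells 0, which allows up to 5.19 CPM. In YS the endothelial-like cells had 28.6 CPM (18.3 to 42.6), from 24 UMIs in 10 of 51 cells, and this interval overlaps that of the next group. Smooth muscle-like (11.7, 5.59 to 21.4), hematopoietic progenitor-like (11.3) and mesenchymal-like cells (8.99) overlapped each other. Erythroid-like and extraembryonic endoderm-like cells had 0 UMIs (up to 0.65 and 4.74 CPM).

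**Figure D2:**
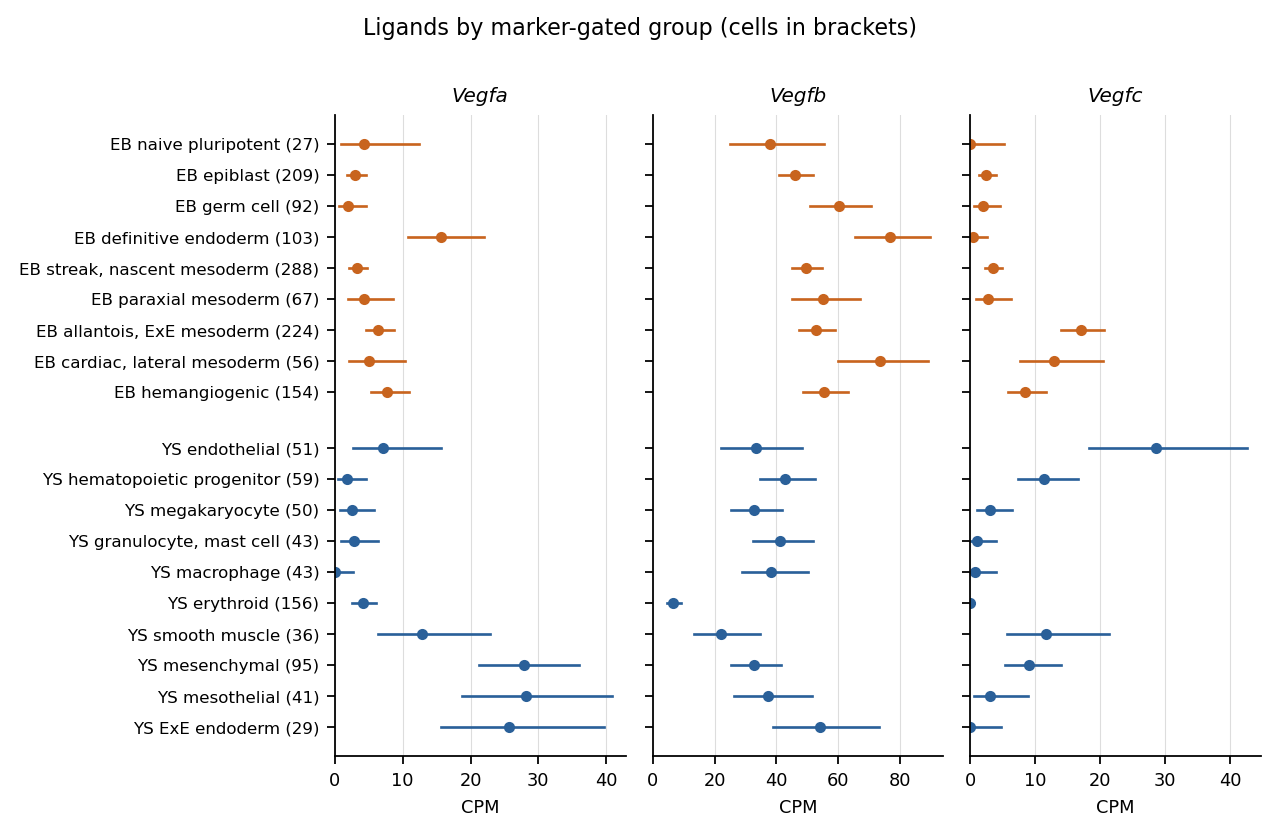
Level (CPM, horizontal axis, from 0, its own range for each gene) of Vegfa, Vegfb and Vegfc in each marker-gated group, with points, 95% exact Poisson intervals and colours (orange EB, blue YS) for summed levels. Vegfa is highest in YS mesothelial-like, mesenchymal-like and extraembryonic endoderm-like cells (25.7 to 28.3 CPM), Vegfb is similar in most groups, and Vegfc has its top points in YS endothelial-like and EB allantois-like cells, each overlapping the next group of its library.

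Set against the other EB cells, the hemangiogenic-like group had 4 of the 8 genes past 2-fold higher (Kdr, Flt1, Flt4 and Nrp2) and 0 past 2-fold lower. Over all 14215 genes compared, 5.33% were past 2-fold higher and 7.67% lower, and the median log2 ratio was 1.12 for the 8 against -0.02 for all. Kdr was 4.15-fold higher (3.84 to 4.48), Flt4 5.92-fold (3.60 to 9.52), Nrp2 2.93-fold (2.66 to 3.21) and Flt1 2.37-fold (1.97 to 2.84). Nrp1 was just under the mark at 1.99-fold (1.71 to 2.30), Vegfa at 1.59 (1.06 to 2.31) and Vegfc at 1.44 (0.983 to 2.05), while Vegfb was level at 1.03. Where a Leiden cluster of 94 cells stood in for the gate, sharing 73 cells with it, the log2 ratio of Nrp2 was 0.61 in place of 1.55, that of Vegfa 1.41 in place of 0.67 and that of Nrp1 1.28 in place of 0.99.

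The YS endothelial-like cells, set against the other YS cells, had 6 of the 8 past 2-fold higher and 0 lower, where 19.4% of 13469 genes were past 2-fold higher and 10.1% lower. The median log2 ratio was 2.25 for the 8 and 0.05 for all. Kdr was 52.0-fold higher (43.9 to 61.8), Flt4 40.2-fold (25.8 to 63.3) and Flt1 29.4-fold (25 to 34.6). Nrp1 (3.12-fold, 2.73 to 3.55) and Nrp2 (3.11-fold, 2.69 to 3.58) were closer to the rest, among which the stroma carried both. Vegfc was 7.26-fold higher (4.43 to 11.5), Vegfb level at 1.11, and Vegfa at 0.733 (0.266 to 1.62). At a minimum of 20% of the 99th percentile, which kept 31 of these cells, the log2 ratio of Flt1 was 4.22 in place of 4.88, and with cells weighted alike it was 5.46.

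Directly compared, the YS endothelial-like cells had 5 of the 8 past 2-fold higher than the EB hemangiogenic-like cells, and 0 were past 2-fold the other way (24.2% and 14.5% of 10701 genes). Flt1 stood at 375 CPM in YS against 35.6 in EB (log2 ratio of EB to YS -3.39), and Flt4 was 9.21-fold higher in YS (5.71 to 15.1), Nrp1 6.05-fold (5.03 to 7.28), Vegfc 3.40-fold (1.93 to 5.88) and Kdr 2.15-fold (1.91 to 2.43). Nrp2 was 1.90-fold higher in YS (1.62 to 2.23), and past 2-fold with the Leiden clusters in place of the gate (log2 ratio of EB to YS -1.82 in place of -0.93). The YS side thus differed most in the receptors other than Kdr. With the UMI minimum at 20% of the 99th percentile the log2 ratio of EB to YS for Kdr was -0.83 in place of -1.11, below 2-fold. This pair was chosen after the levels were seen, and the 2 groups share neither source nor library.

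The EB endoderm-like cells, set against the other EB cells after their Flt1 level had been seen, had 2 of the 8 past 2-fold higher (8.83% of 14215 genes) and 3 lower (7.76%). Flt1 was 13.1-fold higher (11.3 to 15.0) and Vegfa 3.39-fold (2.28 to 4.91). Kdr was 4.95-fold lower (3.44 to 7.41) and Nrp2 10.6-fold lower (5.91 to 21.2), and Vegfc, with 1 UMI, 13.3-fold lower (2.37 to 527). Transcripts of Flt1 and of Vegfa thus stood high where those of Kdr and Nrp2 stood low. UMIs were summed per gene, so soluble and membrane forms of Flt1 were not told apart.

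**Figure D3:**
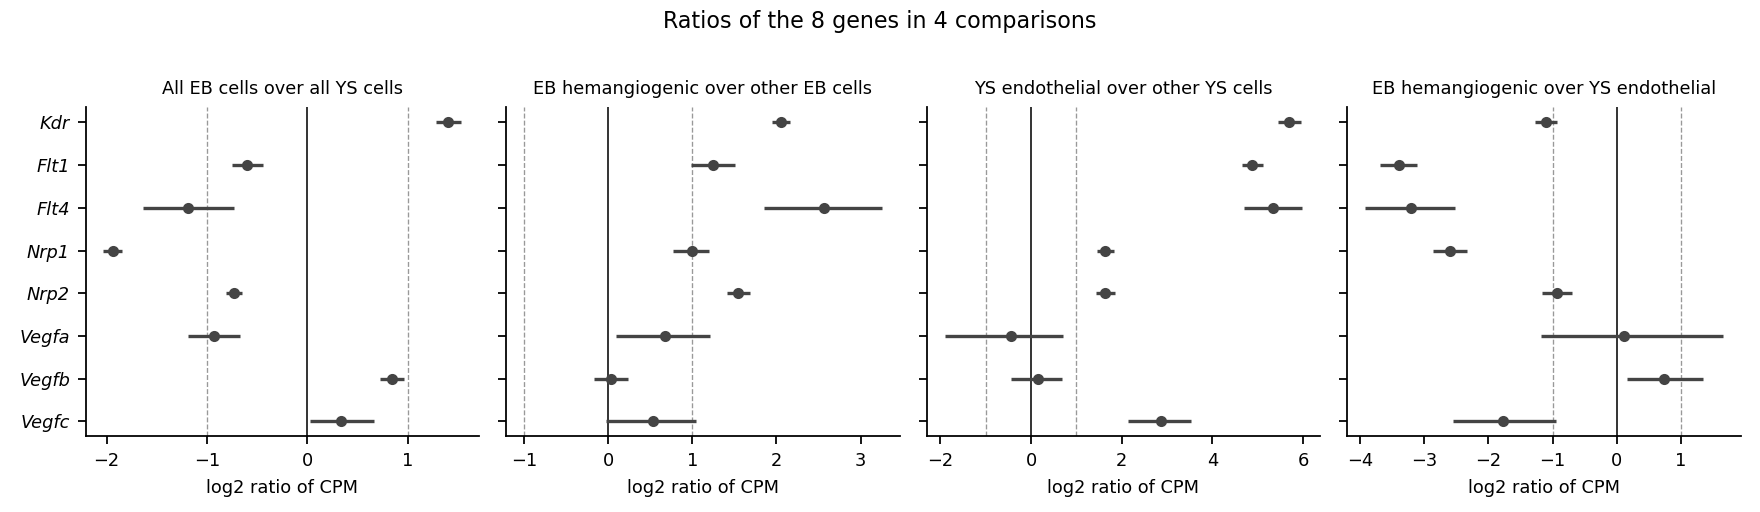
Log2 ratio of CPM (horizontal axis) of each of the 8 genes in 4 comparisons named above the panels; points are ratios, lines 95% conditional binomial intervals, dashed lines 2-fold in either direction and the solid line no difference. The receptors lie at log2 4.88 to 5.70 in YS endothelial-like over other YS cells, and Kdr is the only one of the 8 past 2-fold higher in EB over YS.

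Receptors were often seen in the same cell where each was seen in many cells of the group. High joint shares can follow from high single shares alone, here and for the pairs below. A link beyond that was not tested. Kdr and Flt1 had a UMI together in 92.2% of YS endothelial-like cells (81.1% to 97.8%) and in 39.6% of EB hemangiogenic-like cells (31.8% to 47.8%), or 72.5% and 10.4% at 6000 UMIs. In EB endoderm-like cells the pair was seen in 3.88% of cells, and at 6000 UMIs in 0 of 103 (0% to 3.52%). At 2 UMIs of each gene, Flt1 was seen in 27.8% of EB hemangiogenic-like cells with Kdr (20.2% to 36.5%) and 21.4% without (8.30% to 41.0%). Over all EB cells these shares were 9.56% and 9.75%, and over all YS cells 64.9% and 6.34%. All of Kdr, Flt1 and Flt4 were seen in 51.0% of YS endothelial-like cells (36.6% to 65.2%) and 7.14% of EB hemangiogenic-like cells (3.62% to 12.4%). At 6000 UMIs these shares were 35.3% and 0.649%, and at 2 UMIs of each 23.5% and 1.30%. All 5 receptors and neuropilins were seen in 25 of 51 YS endothelial-like and 6 of 154 EB hemangiogenic-like cells.

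Kdr was also seen with the neuropilins. Of all EB cells with Kdr, 57.2% had Nrp1 and 62.4% Nrp2, against 10.4% and 39.7% of the cells without Kdr. At 2 UMIs of each gene these shares were 39.2% and 45.4%, against 7.20% and 22.1%. Within allantois-like cells Nrp2 was seen in 55.6% of cells with Kdr (47.0% to 63.8%) and 67.5% of those without (56.1% to 77.6%). In all YS cells at 2 UMIs, Nrp1 was seen in 44.3% of cells with Kdr (34.2% to 54.8%) and 38.2% without (34.5% to 42.0%). For Nrp2 these shares were 55.7% (45.2% to 65.8%) and 35.8% (32.2% to 39.6%). Shares over all cells of a library mix cell groups and depths. In the EB hemangiogenic-like group 61.7% of cells had Kdr with Nrp1 and 67.5% Kdr with Nrp2, against 90.2% and 88.2% of YS endothelial-like cells. Allantois-like cells had Kdr with Nrp1 in 54.0%. At 6000 UMIs, 20.8% of hemangiogenic-like and 72.5% of YS endothelial-like cells showed Kdr with Nrp1. In the YS stroma Nrp1 and Nrp2 were seen together in 92.7% of mesothelial-like, 92.6% of mesenchymal-like and 88.9% of smooth muscle-like cells. At least 1 of Kdr, Flt1 and Flt4 was seen in 7.32% (1.54% to 19.9%), 9.47% (4.42% to 17.2%) and 22.2% (10.1% to 39.2%) of these. At 2 UMIs the receptor shares were 0%, 1.05% and 8.33%, where 0 of 41 mesothelial-like cells allows up to 8.60% by the exact interval.

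Ligand and receptor were also seen in the same cell. Kdr with Vegfa was seen in 16.2% of EB hemangiogenic-like (10.8% to 23%) and 11.8% of YS endothelial-like cells (4.44% to 23.9%), the latter being 6 cells with 1 Vegfa UMI each. At 6000 UMIs the shares were 3.90% and 5.88%, and at 2 UMIs of each gene 2.60% (0.712% to 6.52%) and 0% (0% to 6.98%). Flt1 with Vegfa was seen in 20.4% of EB endoderm-like cells (13.1% to 29.5%). At 6000 UMIs, Vegfa was seen in 19.6% of the endoderm-like cells with Flt1 (10.2% to 32.4%) and in 2.13% of those without (0.0539% to 11.3%). The intervals overlap, and without thinning the shares were 25.6% and 19%, and at 2 UMIs 7.58% and 5.41%. Kdr with Vegfc was seen in 24.1% of EB allantois-like cells (18.7% to 30.3%), in 2.68% at 6000 UMIs and in 8.48% at 2 UMIs.

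**Figure D4:**
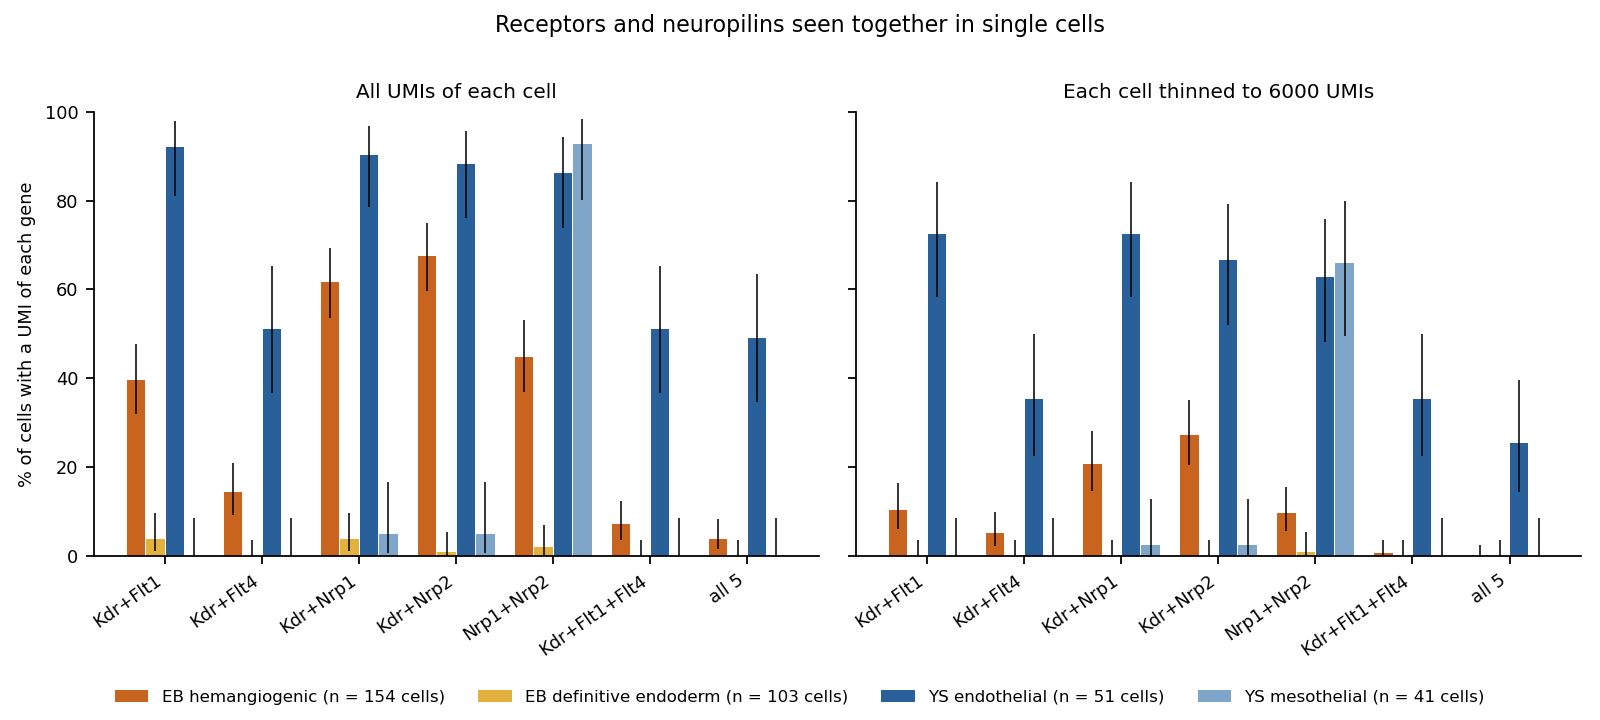
Share of cells (percent, vertical axis) with a UMI of each gene named, for 2 EB and 2 YS groups; bars are shares and lines 95% Clopper-Pearson intervals, with all UMIs on the left and each cell thinned to 6000 UMIs on the right. YS endothelial-like cells show all 5 genes together in 25 of 51 cells, and YS mesothelial-like cells show the 2 neuropilins together in 92.7% of cells and Kdr with Nrp1 in 4.88%.

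The balance between the 2 receptors for VEGF-A changed from group to group. Of the Flt1 and Kdr UMIs together, Flt1 made up 91.3% in EB endoderm-like cells (87.8% to 94.1%), 14.1% in hemangiogenic-like (12.0% to 16.3%), 8.82% in allantois-like and 4.41% in cardiac-like cells. In YS it made up 44.5% in endothelial-like (40.8% to 48.2%), 74.3% in hematopoietic progenitor-like (66.6% to 81.1%) and 15.8% in megakaryocyte-like cells. These shares compare groups for 1 pair of genes and do not say which gene has more protein, or more transcript, in any group.

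Of the neuropilin UMIs, Nrp2 made up 72.3% in EB hemangiogenic-like, 92.7% in epiblast-like and 93.1% in paraxial-like cells, but 43.1% in allantois-like and 10.6% in endoderm-like cells. In YS it made up 57.9% in mesothelial-like, 45.1% in endothelial-like, 41.4% in mesenchymal-like and 30.3% in smooth muscle-like cells. Macrophage-like cells, at 8.87%, were the lowest YS group and hematopoietic progenitor-like cells, at 82.1%, were high.

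Genes around the pathway were read from lists, to be set beside the shares of all genes past 2-fold higher and lower: 19.4% and 10.1% in YS endothelial-like cells, 5.33% and 7.67% in EB hemangiogenic-like cells, and 8.83% and 7.76% in EB endoderm-like cells. In YS endothelial-like cells, of 11 genes compared that VEGF is known to induce in endothelium, 8 were past 2-fold higher and 0 lower (median log2 3.56), led by Esm1 (117 against 0.471 CPM), Dll4 (48.9 against 0.257 CPM) and Nos3 (50.1 against 0.30 CPM). Esm1 codes for a secreted tip-cell proteoglycan, and 5 cells held 62.4% of its 109 YS UMIs. Dll4 codes for a Notch ligand and Nos3 for endothelial nitric oxide synthase. The cells were gated on endothelial markers, so these counts cannot tell a response to VEGF from endothelial identity. Such a response was not tested. Of 15 signalling genes 8 were higher and 2 lower, the highest being Ptprb (66.8 against 0.600 CPM), a phosphatase of endothelial receptors. Of 12 neuropilin partners 6 were higher, among them the semaphorin receptor Plxnd1 (144 against 5.70 CPM). Of the factors known to act on the receptor genes, 10 compared were not in the endothelial marker list. Of these 6 were higher and 0 lower, among them Ets1 (186 against 13.4 CPM). Gata2 was in the marker list of the competing hematopoietic progenitor-like group, over which the gate required a lead. The 18 Etv2 UMIs of the endothelial-like cells came from 2 of 51 cells, 1 of which held 14. Of 8 HIF factors and oxygen sensors 1 was past 2-fold higher and 0 lower. It was Epas1, which codes for the hypoxia factor HIF2A (81.1 against 3.34 CPM).

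In EB hemangiogenic-like cells fewer list genes were past 2-fold, and several counts lay near the share of all genes. Of 9 VEGF-induced genes 1 was past 2-fold higher (Nos3, 3.85 against 1.72 CPM) and 2 were lower (Apln, 5.54 against 21.5 CPM, and Angpt2 with 1 UMI, a ratio of 0.320 with an interval of 0.00788 to 1.90). Of 15 signalling genes 1 was higher, Ptprb, whose 3 UMIs give a ratio of 2.10 (0.392 to 7.34). Neuropilin partners were higher in 3 of 12: Plxnd1 (12.0 against 2.49 CPM), Sema3f (6.98 against 1.78 CPM) and Sema3a (5.05 against 1.63 CPM). Of the 5 factors compared that were not in the hemangiogenic marker list, Erg (ratio 52.3, 14.6 to 284, with 3 UMIs in the other cells) and Ets1 were higher. Foxc1, with 3 UMIs, was lower (ratio 0.436, 0.0881 to 1.32). It was in the competing paraxial mesoderm marker list, over which the gate required a lead. Between the groups, YS endothelial-like cells had 10 of 11 VEGF-induced genes past 2-fold higher than EB hemangiogenic-like cells (24.2% of all genes). Esm1, with 0 UMIs in the latter set at the floor of 3 counts, was at least 162-fold higher, with the same uneven spread over YS cells. Here too the YS cells were gated on endothelial markers, and a response to VEGF was not tested.

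Of the 4 genes compared for the cutting of VEGF-C to its active form, 0 were past 2-fold in EB hemangiogenic-like cells, and in YS endothelial-like cells Pcsk7 was higher (ratio 2.01, 0.787 to 4.30) and Pcsk5, with 2 UMIs, lower (0.284, 0.0342 to 1.04). Of the ligands outside the 8, Pgf stood at 2.37 CPM in all EB and 5.38 in all YS cells, and Vegfd at 1.30 and 0.289 CPM.

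In EB endoderm-like cells, 5 of 9 HIF target genes other than Vegfa were past 2-fold higher and 0 lower, with a median log2 ratio of 1.10. The highest were Bnip3 (118 against 36.8 CPM), Slc2a1 (455 against 142 CPM), the glucose transporter gene, and Ndrg1 (18.5 against 6.57 CPM). Of 8 HIF factors and oxygen sensors 1 was past 2-fold, Egln1 (41.7 against 12.9 CPM). In EB hemangiogenic-like cells 0 of 9 HIF targets were past 2-fold higher and 2 lower (5.33% and 7.67% of all genes). In YS endothelial-like cells 1 of 10 was higher and 3 were lower (19.4% and 10.1%). Bnip3 and Ndrg1 were among the lower in both, set against the other cells of each library. The part of oxygen in any of this was not tested.

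Over all cells, 1 of the 8 was past 2-fold higher in EB (Kdr) and 2 in YS (Flt4 and Nrp1), where 18.5% of 15621 genes were past 2-fold higher in EB and 21.5% in YS. Nrp1 stood at 28.0 CPM in EB and 107 in YS, 3.83-fold higher in YS (3.59 to 4.09). Flt4 was at 1.60 against 3.64 CPM (2.28-fold, 1.67 to 3.12), Vegfa at 5.07 against 9.68 (1.91-fold, 1.59 to 2.29), Nrp2 at 53.1 against 88.1 (1.66-fold, 1.57 to 1.76) and Flt1 at 16.7 against 25.3 (1.51-fold, 1.36 to 1.68). Vegfb was higher in EB, 54.1 against 30.3 CPM (1.79-fold, 1.65 to 1.94), as was Vegfc at 1.26-fold (1.02 to 1.58). These ratios mix the level within a cell type with how many such cells a library holds, which sums over all cells do not separate. By group, Kdr stood at 468 CPM in YS endothelial-like cells, with 3.47% of YS UMIs. In EB it stood at 217 CPM in hemangiogenic-like, 187 in cardiac-like and 97.3 in allantois-like cells, with 8.20%, 2.75% and 12.4% of EB UMIs. With cells weighted alike, the Kdr log2 ratio was 0.72 in place of 1.40, below 2-fold, and Flt1 (-1.0), Nrp2 (-1.36) and Vegfa (-1.43) joined Flt4 (-1.90) and Nrp1 (-2.40) in lying 2-fold or more toward YS.

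Over the 19 groups, the genes whose log2(CPM + 10) most resembled each of the 8 were, by Pearson's r, given as a description with no test, Fgd5 for Kdr (0.92, then Gchfr and Hdac7), Dpysl3 for Flt1 (0.84) and Myzap for Flt4 (0.98, then Cdh5 and Arhgef15). App came closest to Nrp1 (0.95), Phldb2 to Nrp2 (0.94), Igfbp5 to Vegfa (0.92), Swi5 to Vegfb (0.89) and Hdac7 to Vegfc (0.89). Among the 8 the highest r were 0.79 for Nrp1 with Nrp2, 0.77 for Flt1 with Flt4, 0.74 for Kdr with Vegfc, 0.70 for Kdr with Flt4 and 0.55 for Kdr with Flt1. The 19 points come from 2 libraries and share their cells' depth. Flt4 reached 50 CPM in 1 of the 19 groups, YS endothelial-like cells, so its r values rest mostly on that point. Flt1 reached it in 3 groups, Kdr in 4, and Vegfa and Vegfc in 0. The like genes had to reach 50 CPM in at least 1 group. Fgd5 (56.1 CPM) and Hdac7 (60.8 CPM) had their highest level in YS endothelial-like cells.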

How the data were processed

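Droplet single-cell RNA was measured in 2 libraries, EB and YS, loaded at 300 cells per microlitre. The authors deposited unfiltered UMI counts of each gene in each barcode, made on mm10 per the submitters' processing notes. The aligner, counter, annotation version and strand setting were not given in the sources used here. Barcodes with at least 6172 (EB) or 6537 (YS) UMIs, which is 10% of the 99th percentile of the top 3000 barcode totals, 200 genes and at most 10% mitochondrial UMIs were kept as cells. Cells were gated by z-scored marker lists: score at least 0.3, lead 0.2, 3 markers seen. Groups of 20 or more cells were described. Scrublet marked 3 EB and 2 YS cells, against an expected 1.50% and 0.62%, so it did not work, and doublets were kept. The libraries shared 2 cell barcodes (1.974 expected). Genes with 10 UMIs in both groups together were compared, and 0 UMIs were set at a floor of 3 counts. Members and lists were chosen with earlier results of these data known. Gate thresholds, the endoderm comparison and the hemangiogenic against endothelial comparison were chosen after values were seen. Named genes were the 8, up to 3 list genes past 2-fold in each direction, and the 3 most alike genes that reach 50 CPM; the text gives part of these. Interval code was tested on simulated data. Python 3.11.15, numpy 2.4.6, scipy 1.17.1 and scanpy 1.11.5 were used.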

Additional observations from a re-analysis of the deposited data

How the results depend on the processing

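Among ratios whose interval left out equality, no direction reversed under any alternative run. For ratios whose interval held equality, a change of sign was not recorded. Of the log2 ratios of EB over YS, 44 stayed within their interval and 12 left it. The run without marked doublets left out 3 EB and 2 YS cells, so it could hardly move a value. It gave 8 of the 44, and below 16 of 134, 8 of 66 and 16 of 118 values that stayed. With 1 more marker the 51 YS endothelial-like cells were unchanged, so their ratios to other YS cells could not move. Kdr (1.40) was 1.25 at a minimum of 1000 UMIs, 1.65 at 20% of the 99th percentile and 0.72 with cells weighted alike. At 20% Flt1 (-0.60) was -0.36 and Nrp2 (-0.73) -0.59. With cells weighted alike Flt1 was -1.0, Flt4 (-1.19) -1.90, Nrp1 (-1.94) -2.40, Nrp2 -1.36 and Vegfa (-0.93) -1.43, and 0 genes lay past 2-fold toward EB and 5 toward YS, against 1 and 2; at 20%, 1 lay toward YS. Without mitochondrial and globin genes in the total Nrp1 was -2.03 and Nrp2 -0.83.

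For the receptor groups over the rest, 134 values stayed and 10 left. With the Leiden cluster, EB Nrp1 (0.99) was 1.28, Nrp2 (1.55) 0.61 and Vegfa (0.67) 1.41. At 20%, YS Flt1 (4.88) was 4.22, Nrp1 (1.64) 1.36 and Nrp2 (1.64) 1.33; with cells weighted alike Kdr (5.70) was 5.96, Flt1 5.46, Nrp1 1.36 and Nrp2 1.32. For EB hemangiogenic-like over YS endothelial-like cells 66 values stayed and 6 left: Kdr (-1.11) was -1.31 at 1000 UMIs, at 20% Kdr was -0.83, Flt1 (-3.39) -2.73, Nrp1 (-2.60) -2.30 and Nrp2 (-0.93) -0.52, and with the Leiden clusters Nrp2 was -1.82. Of the levels in the highest groups 118 stayed and 9 left. In YS endothelial-like cells Kdr (468 CPM) ranged over 380 to 526, Flt1 (375 CPM) over 244 to 468, and Flt4 (62.0 CPM) was 44.0 at 20%. With cells weighted alike Kdr in EB hemangiogenic-like cells was 236 CPM and Flt1 in EB endoderm-like cells 163 CPM.

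The share of cells with all 3 receptors, 7.14% in EB hemangiogenic-like and 51.0% in YS endothelial-like cells, was 1.30% and 23.5% at 2 UMIs, and 0.649% and 35.3% at 6000 UMIs. Fewer UMIs give fewer joint sightings by construction. The cause of the other shifts was not tested. Groups of 27 to 59 cells limit the precision of Flt4, Vegfa and Vegfc. No paired analysis was possible because each source is 1 library.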
